A study of Mus musculus with 2 samples.

Results

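DNA transposons are mobile elements that move as DNA, without an RNA copy, by means of a transposase that recognises the short inverted repeats at their ends. The 2 superfamilies with the most rows here are hAT, named after the hobo, Ac and Tam3 elements of other organisms, and Tc1-mariner. In the mouse genome these elements are old remnants that no longer move, and many copies are short, internally deleted forms that encode no transposase. Helitrons differ from both in that they are thought to spread by rolling-circle replication.

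The rows examined were the 80 repeat types, of 952 in the deposited tables, whose name starts with one of 11 family names. Charlie (34 rows), URR1 (2), Cheshire (2), Zaphod (3), Arthur (4) and ORSL (3) belong to hAT, which gave 48 rows. Tigger (19), Kanga (7) and MARNA (1) belong to Tc1-mariner, which gave 27 rows. Looper (1 row) is a piggyBac element, and the remaining 4 rows are Helitrons. The tables list names only, and the assignment of names to superfamilies is general knowledge of repeat classification that the read counts played no part in.

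The study measured where histone H3.3 carries phosphate on serine 31 (H3.3S31ph) in mitosis. H3.3 is a replication-independent histone H3 variant, and serine 31 is absent from the canonical forms. There was 1 H3.3S31ph ChIP sample and 1 input sample, which is chromatin sequenced without antibody, both from wild-type 129S1/SvImJ mouse embryonic stem (ES) cells at a passage number under 20. All cells had been blocked for 12 h with 9 µM RO-3306, a CDK1 inhibitor, then released and harvested 11 h later as a mitotic population. Both libraries were run on 2 lanes, which are repeat runs of 1 library and were summed. Whether the population held cells outside mitosis cannot be read from these tables.

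A ratio below is the percentage that a row takes of all ChIP reads in the tables, divided by the percentage it takes of all input reads in the tables. The tables held 12235477 ChIP reads against 8856751 input reads. With 1 sample on each side there is no replicate check and no test, and each interval in brackets is a 95% interval of counting error only. A ratio whose interval lies below or above 1 is described as such, without a claim about other cultures. The scale matters, because a few strongly enriched repeats such as the telomeric repeat (CCCTAA)n, at 14.4, push all other ratios down. The median of the 704 repeats with at least 100 input reads was 0.805, or -0.31 on the log2 scale, and members were therefore also set against this median repeat.

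The DNA transposon rows were not enriched for H3.3S31ph, and as a group they lay slightly under the bulk of repeats. Together they held 177797 ChIP reads against 164876 input reads, which is 1.45% of the ChIP total and 1.86% of the input total, a pooled ratio of 0.781 (0.775 to 0.786). Of the 80 rows, 78 had at least 100 input reads. Their ratios ran from 0.610 to 1.00, with a median log2 ratio of -0.37, against -0.30 for the 626 other repeats and -0.31 for the whole table. The quartiles of the members were -0.44 and -0.31, while those of the other repeats were -0.39 and -0.18. The 2 rows below the read minimum, Charlie10b and Cheshire_Mars, had 83 ChIP and 80 input reads in all.

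Of the 78 rows, 70 had an interval below 1, where 79.5% of all repeats did, and 0 had an interval above 1, where 7.81% of all repeats did. The other 8 intervals included 1. Against the median repeat, 21 rows lay below it with their whole interval (26.9%), compared with 19.2% of all repeats, and 1 lay above it (1.28%), compared with 27.3% of all repeats. By size alone, 19 members were at least 1.1-fold below the median repeat (24.4%, with 14.8% in the table) and 5 at least 1.1-fold above it (6.41%, with 22.3% in the table). The members were thinner in reads than the other repeats, with a median of 477.5 input reads against 1660, so fewer intervals could exclude any level. Whether base composition or mappability of the rows moves with these ratios was not tested.

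**Figure D1:**
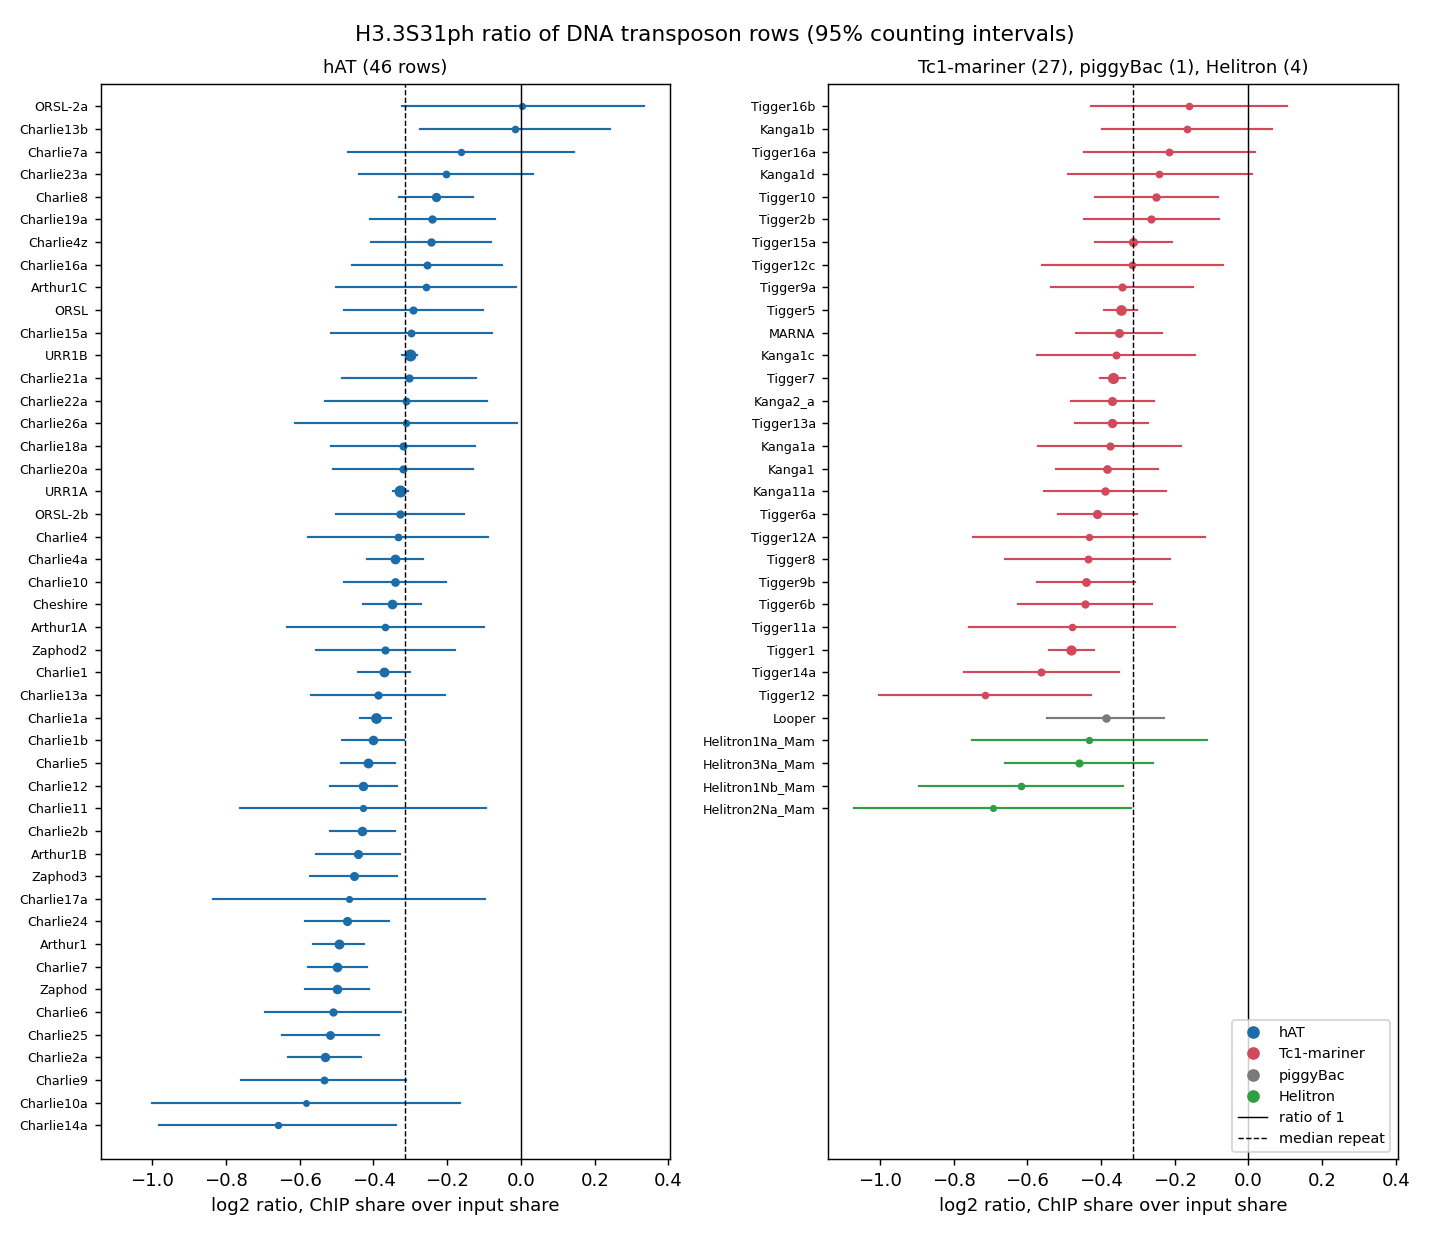
Log2 ratio of ChIP share to input share (x axis) for the 78 DNA transposon rows with at least 100 input reads, hAT on the left and the other superfamilies on the right, with 95% counting intervals as lines and larger points for more input reads. The solid line marks a ratio of 1 and the dashed line the median repeat at -0.31; 70 of the intervals lie wholly left of the solid line, and 56 span the dashed line.

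The hAT and Tc1-mariner superfamilies had nearly the same level. The 48 hAT rows had 133312 ChIP reads and 123034 input reads, a pooled ratio of 0.784 (0.778 to 0.790). The 27 Tc1-mariner rows had 42910 ChIP reads and 40267 input reads, a pooled ratio of 0.771 (0.761 to 0.782). The difference of hAT minus Tc1-mariner was 0.024 on the log2 scale (0.0015 to 0.047), a value that no choice of scale between the libraries can alter. Its direction rested on the pair of URR1 rows, which supplied 78796 of the 133312 hAT ChIP reads. Without them, a setting added once the data had been seen, the pooled hAT ratio was 0.758 (0.749 to 0.767) and the difference was -0.025 (-0.051 to 0.00094), an interval that included 0.

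Row by row the ranges of the superfamilies also overlapped. The median log2 ratio was -0.36 over 46 hAT rows and -0.37 over 27 Tc1-mariner rows, a difference of 0.011. It was -0.011 in lane 1 and -0.0027 in lane 2, and -0.053 among rows with at least 1000 input reads, so its sign was not stable. An interval below 1 was found for 42 of 46 hAT rows (91.3%) and 23 of 27 Tc1-mariner rows (85.2%), where 79.5% of all repeats had one. An interval below the median repeat was found for 15 of 46 hAT rows (32.6%) and 4 of 27 Tc1-mariner rows (14.8%), which lie on either side of the 19.2% of all repeats. The difference between these shares was not tested. The spread between rows was alike, with a standard deviation of the log2 ratio of 0.13 over the hAT rows and 0.12 over the Tc1-mariner rows.

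DNA transposon rows that carry MER names stood at similar levels. Of 42 hAT-type MER names listed, 35 were in the tables, all with at least 100 input reads, and their pooled ratio was 0.798 (0.790 to 0.806) with a median log2 ratio of -0.32. Of 19 Tc1-mariner-type MER names, 12 were in the tables and 11 passed the read minimum, with a pooled ratio of 0.778 (0.767 to 0.789) over the 12 and a median log2 ratio of -0.35. The pooled difference of hAT minus Tc1-mariner among these rows was 0.036 (0.011 to 0.061). The 5 rows of the MIR and L2 retroelements, which are also ancient, stood higher, at 0.839 (0.834 to 0.844). The members lay 0.10 below them on the log2 scale (-0.12 to -0.091).

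**Figure D2:**
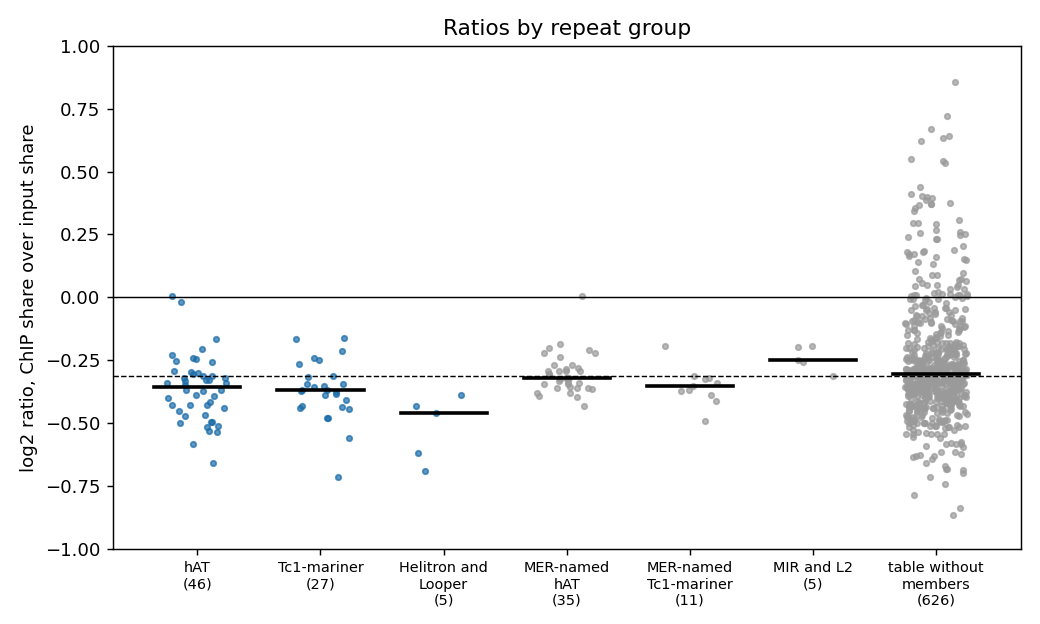
Log2 ratio of ChIP share to input share (y axis) for single repeat rows with at least 100 input reads, by group, with the number of rows in brackets and a bar at each group's median. The hAT and Tc1-mariner medians, -0.36 and -0.37, both lie just under the dashed line of the median repeat; 9 other repeats lie outside the plotted range, and the last group includes the 3 groups to its left.

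URR1, a rodent hAT family related to Charlie, was the most abundant and lay at the level of the median repeat. URR1A had 40437 ChIP reads and 36739 input reads, a ratio of 0.797 (0.786 to 0.808). URR1B had 38359 ChIP reads and 34234 input reads, a ratio of 0.811 (0.799 to 0.823). Both intervals included the median repeat at 0.805, and the 2 rows differed by -0.026 on the log2 scale (-0.055 to 0.0035). Their lanes were close, at 0.796 in lane 1 and 0.798 in lane 2 for URR1A, and at 0.808 in lane 1 and 0.814 in lane 2 for URR1B. The pooled URR1 ratio lay 0.084 above that of the other hAT rows on the log2 scale (0.062 to 0.11).

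Charlie, the largest hAT family by number of rows, lay somewhat lower and was not uniform. Its 34 rows had a pooled ratio of 0.762 (0.751 to 0.772), and 11 of its 33 rows with enough reads (33.3%) had an interval below the median repeat, compared with 19.2% of all repeats. Among the 11 rows with at least 1000 input reads, the ratios ran from 0.692 to 0.853. The 3 Charlie1 rows were not separable. Charlie1a, the most abundant, had 9604 ChIP and 9135 input reads and a ratio of 0.761 (0.739 to 0.783), while Charlie1 had 0.773 (0.736 to 0.812) and Charlie1b 0.757 (0.714 to 0.803). Charlie1 minus Charlie1a was 0.022 (-0.060 to 0.10) and Charlie1b minus Charlie1a was -0.0072 (-0.10 to 0.086).

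Other Charlie rows stood apart from one another by more than counting error. Charlie7 had 2445 ChIP and 2499 input reads, a ratio of 0.708 (0.670 to 0.749), while Charlie8 had 1774 ChIP and 1506 input reads, a ratio of 0.853 (0.796 to 0.914). Charlie8 minus Charlie7 was 0.27 on the log2 scale (0.14 to 0.40), a pair chosen after its values were seen. Charlie4a had 2979 ChIP and 2732 input reads and a ratio of 0.789 (0.749 to 0.832), which lay 0.16 above Charlie7 (0.046 to 0.27). Charlie8 was also the only Charlie row with at least 1000 input reads whose ratio exceeded the median repeat, and its interval included that median.

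Several mid-sized and thin Charlie rows lay on the low side, though others did not. Of the 33 analysed Charlie rows, 22 had a ratio below the median repeat and 11 above it. Those above included thin rows such as Charlie23a at 0.868 (0.738 to 1.02) and Charlie19a at 0.847 (0.753 to 0.952), whose intervals included the median repeat. Charlie2a had 1631 ChIP and 1707 input reads, a ratio of 0.692 (0.646 to 0.741), and its sister row Charlie2b had 2152 ChIP and 2099 input reads, a ratio of 0.742 (0.699 to 0.789). These rows differed by -0.10 (-0.23 to 0.029), within counting error. Charlie24 had a ratio of 0.721 (0.666 to 0.780), Charlie12 one of 0.743 (0.698 to 0.792) and Charlie5 one of 0.750 (0.713 to 0.789). Of the rows with fewer than 1000 input reads, Charlie25, at 0.699 (0.638 to 0.766), Charlie6, at 0.702 (0.618 to 0.797), and Charlie14a, at 0.633 (0.506 to 0.791), also had intervals below the median repeat. Charlie25 differed between lanes, at 0.779 (0.685 to 0.885) in lane 1, which included the median repeat, and 0.622 (0.544 to 0.710) in lane 2. Charlie14a, with 175 input reads, and Charlie10a, with 103, had the lowest ratios of the family. Cheshire, a hAT element of the Charlie group, had 2718 ChIP and 2507 input reads and a ratio of 0.785 (0.743 to 0.829), an interval that included the median repeat.

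The hAT elements of the Tip100 group, named after a plant element, had a lower pooled ratio than the Charlie group with both lanes summed. The pooled ratio was 0.789 (0.782 to 0.795) for the Charlie group, which includes URR1 and Cheshire, and 0.736 (0.716 to 0.756) for the Tip100 group. The difference of the Charlie group minus the Tip100 group was 0.10 on the log2 scale (0.058 to 0.14), and with the Charlie rows alone it was 0.050 (0.0057 to 0.095). The gap with the Charlie rows alone rested on lane 2, as in lane 1 the pooled levels were nearly equal. The medians over rows were closer, at -0.35 over 36 rows of the Charlie group and -0.37 over 10 rows of the Tip100 group.

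Within the Tip100 group, the abundant Zaphod and Arthur rows were lower than the ORSL rows. Arthur1 had 3236 ChIP and 3301 input reads, a ratio of 0.710 (0.676 to 0.745), and Arthur1B had 1276 ChIP and 1255 input reads, a ratio of 0.736 (0.680 to 0.796). Zaphod had 2174 ChIP and 2224 input reads, a ratio of 0.708 (0.667 to 0.751), and Zaphod3 had 1192 ChIP and 1182 input reads, a ratio of 0.730 (0.673 to 0.792). All 4 of these intervals lay below the median repeat, while Zaphod2 and Arthur1A, both at 0.775, and Arthur1C, at 0.836 (0.707 to 0.990), had intervals that included it. Arthur1C, over 264 input reads, thus stood above the median repeat and above 2 of the 3 ORSL rows. The Zaphod and Arthur rows together had a pooled ratio of 0.724 (0.703 to 0.746), which lay 0.073 below the Charlie rows on the log2 scale, a difference of -0.073 (-0.12 to -0.026). This gap came mostly from lane 2. In lane 1 alone the pooled levels were close, within counting error of each other.

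The 3 ORSL rows pooled to 0.830 (0.765 to 0.901), and Zaphod and Arthur minus ORSL was -0.20 (-0.32 to -0.072), rows grouped only once their values were known. ORSL-2b had 572 ChIP and 520 input reads and a ratio of 0.796 (0.706 to 0.898), and ORSL had 0.817 (0.716 to 0.931). ORSL-2a, with 187 ChIP and 135 input reads, had the highest ratio of all members, 1.00 (0.799 to 1.26). The level of the Zaphod rows also differed between lanes more than that of most abundant members. Zaphod had 0.753 (0.693 to 0.818) in lane 1 and 0.661 (0.607 to 0.721) in lane 2, and Zaphod3 had 0.793 (0.708 to 0.888) in lane 1 and 0.666 (0.592 to 0.750) in lane 2. The lane intervals overlapped for both rows, and both lanes gave a ratio below the median repeat of 0.805.

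Tigger, a Tc1-mariner family of the pogo type, supplied most of the Tc1-mariner reads. Its 19 rows had a pooled ratio of 0.770 (0.758 to 0.781), which differed from that of the Charlie rows by 0.015 on the log2 scale (-0.014 to 0.043). Tigger7 had 14626 ChIP and 13668 input reads, a ratio of 0.775 (0.757 to 0.793), slightly below the median repeat. Tigger5 had 8398 ChIP and 7726 input reads, a ratio of 0.787 (0.763 to 0.812), and Tigger5 minus Tigger7 was 0.023 (-0.033 to 0.078). The interval of their difference included 0.

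Tigger1 lay lower. It had 4307 ChIP and 4349 input reads and a ratio of 0.717 (0.687 to 0.748), with 0.715 in lane 1 and 0.719 in lane 2. Tigger1 minus Tigger5 was -0.13 (-0.21 to -0.059), and Tigger7 minus Tigger1 was 0.11 (0.042 to 0.18), pairs chosen after their values were seen. Tigger13a at 0.773, Tigger15a at 0.805 and Tigger6a at 0.753, the other rows with at least 1000 input reads, all had intervals that included the median repeat. Tigger14a, with 366 ChIP and 391 input reads, had 0.678 (0.586 to 0.783), and Tigger12, with 187 ChIP and 222 input reads, had the lowest ratio of all members, 0.610 (0.499 to 0.744). The related Tigger12A and Tigger12c, at 0.741 (0.596 to 0.921) and 0.804 (0.678 to 0.953), had intervals that overlapped that of Tigger12 and included the median repeat.

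Kanga and MARNA, the other Tc1-mariner families, were not separable from Tigger at this depth. The 7 Kanga rows pooled to 0.784 (0.750 to 0.819), and Tigger minus Kanga was -0.026 (-0.092 to 0.039). Kanga2_a, the most abundant, had 1323 ChIP and 1237 input reads and a ratio of 0.774 (0.716 to 0.837), and Kanga1b, with 347 ChIP and 282 input reads, reached 0.891 (0.759 to 1.05). All 7 intervals included the median repeat. MARNA had 1250 ChIP and 1154 input reads and a ratio of 0.784 (0.723 to 0.850), which also included it, and Tigger minus MARNA was -0.027 (-0.14 to 0.090).

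Looper and the Helitrons rested on few reads. Looper had 677 ChIP and 641 input reads and a ratio of 0.765 (0.685 to 0.853). The 4 Helitron rows had 898 ChIP and 934 input reads in all, a pooled ratio of 0.696 (0.634 to 0.764), the lowest pooled ratio of the 11 name families. The Helitron pool minus the other members was -0.17 on the log2 scale (-0.30 to -0.034). Helitron3Na_Mam had 410 ChIP and 408 input reads and a ratio of 0.727 (0.633 to 0.836), while Helitron1Nb_Mam, at 0.652 (0.538 to 0.790), and Helitron2Na_Mam, at 0.619 (0.477 to 0.803), had intervals below the median repeat. Helitron1Na_Mam, with 168 ChIP and 164 input reads, had the highest of the 4 ratios, 0.742 (0.594 to 0.925), and its interval included the median repeat.

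The extremes of the list were mostly rows with few reads. The 5 highest ratios belonged to ORSL-2a at 1.00, Charlie13b at 0.988 (0.827 to 1.18), Tigger16b at 0.894 (0.743 to 1.08), Charlie7a at 0.893 and Kanga1b at 0.891, each with at most 282 input reads. Charlie13b was the single member whose interval lay above the median repeat, and in single lanes it did so in lane 1, barely, at a lower bound of 0.807 against a lane median of 0.806, and not in lane 2. The 5 lowest belonged to Tigger12, Helitron2Na_Mam, Charlie14a, Helitron1Nb_Mam and Charlie10a at 0.668, each with at most 231 input reads. Among 23 rows with 100 to 299 input reads the standard deviation of the log2 ratio was 0.20, where counting error alone gave a median standard deviation of 0.14. For the 29 rows with 300 to 999 input reads these values were 0.090 and 0.092, and for the 26 rows with at least 1000 they were 0.072 and 0.043. The spread between rows was thus wider than counting error in the lowest and highest class and not in the middle one, and 65 of all 78 intervals included the pooled ratio of the members.

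**Figure D3:**
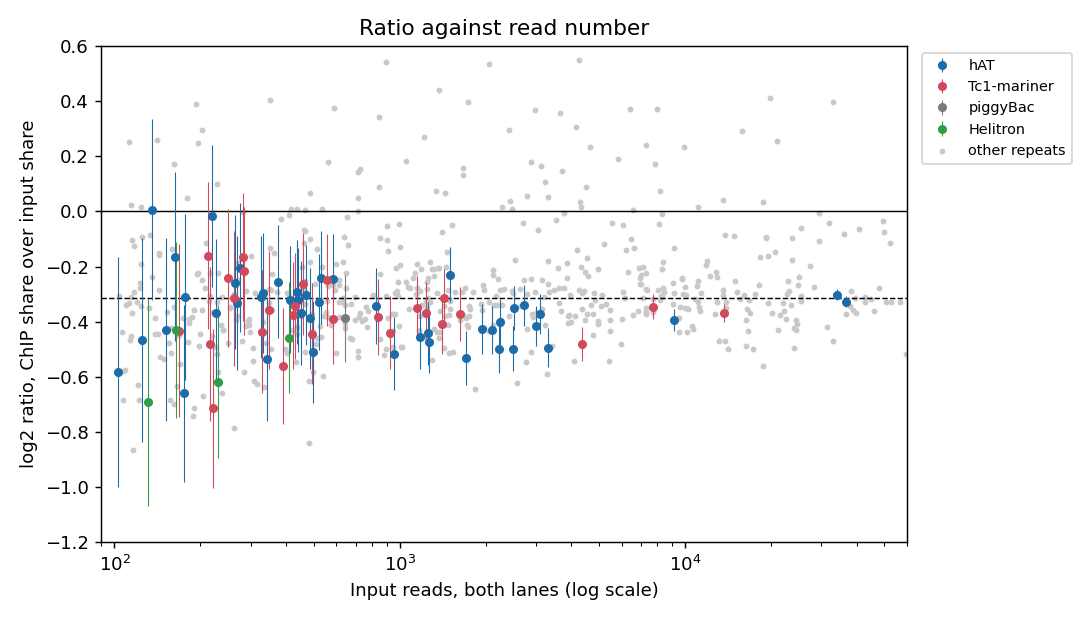
Log2 ratio of ChIP share to input share (y axis) against input reads on a log scale (x axis), with members coloured by superfamily and drawn with 95% counting intervals, and other repeats in grey. The spread narrows with read number, to ratios from 0.692 to 0.853 in the 26 members with at least 1000 input reads; 34 other repeats lie outside the plotted range.

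Rows named by the bare family name and a number had a lower median than rows with a letter or other suffix, which mark subfamilies. Their pooled ratios were not separable once URR1 was left out. The 27 base-named rows had a median log2 ratio of -0.42, and the 51 analysed suffix-named rows one of -0.34. An interval below the median repeat was found for 12 of 27 base-named rows (44.4%) and 9 of 51 suffix-named rows (17.6%), the second share being near the 19.2% of all repeats. Base-named rows were also richer in reads, with a median of 1154 input reads against 408 for suffix-named rows. The pooled ratios were 0.758 (0.749 to 0.767) for base-named rows and 0.771 (0.760 to 0.782) for suffix-named rows without URR1, a difference of -0.024 (-0.050 to 0.0024) that included 0. Rows of one family can share sequence, and the sources used here do not say how reads matching several rows were assigned, so such rows are not independent of each other.

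Both lanes placed nearly every member below 1. In 75 of the 78 rows both lanes had a ratio below 1, and in 0 rows both were above 1. Most other repeats were also below 1 in both lanes, 531 of 626, while 64 were above 1 in both. The lane log2 ratios differed by a median of 0.11 over the 78 rows and by 0.058 over the 26 abundant ones (at least 1000 input reads), and in 77 of 78 rows the lane intervals overlapped. The exception was Charlie7a, with 87 ChIP and 97 input reads in lane 1, a ratio of 0.646 (0.478 to 0.872), and 114 ChIP and 66 input reads in lane 2, a ratio of 1.26 (0.920 to 1.73). Its place among the 5 highest ratios therefore rested on lane 2. Across the 26 abundant members, which share both libraries, the lane log2 ratios had a Pearson's r of 0.371 and a Spearman's rho of 0.440. Over all 78 members these were 0.209 and 0.233. Over the 626 other repeats, whose ratios range more widely, they were 0.902 and 0.708. The order among members within their narrow range was thus only partly repeated between lanes, and less so with the thin rows included.

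**Figure D4:**
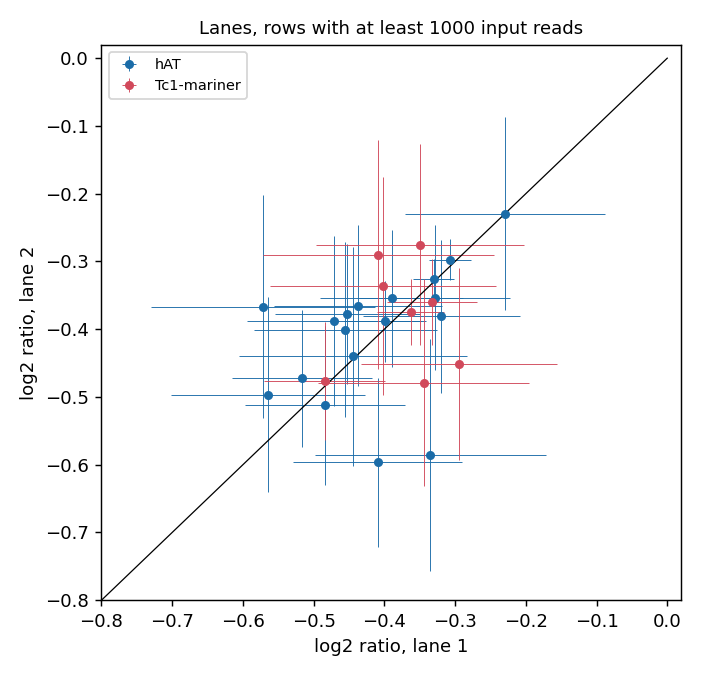
Log2 ratio in lane 2 (y axis) against lane 1 (x axis) for the 26 members with at least 1000 input reads, 18 of hAT and 8 of Tc1-mariner, with 95% counting intervals and the line of equality. Every point lies below 0 in both lanes; Zaphod3 lies farthest from the line, with a difference of 0.25.

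In the authors' deposited table, a conservative log2 ratio is the interval bound nearer 0, or 0 where the interval includes it. By this value, the authors' deposited table put 46 of the 80 rows below 0 and 0 above it in lane 1, and 43 below and 1 above in lane 2. In both lanes 34 of the 80 rows in the authors' deposited table lay below 0, a count that was not made over all 952 rows. The members below 0 were 57.5% in lane 1 and 53.8% in lane 2 of the authors' deposited table, compared with 40.8% in lane 1 and 40.2% in lane 2 for all its 952 rows. These are single-lane values on the authors' own scale and are not directly comparable with the counts above.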

How the data were processed

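Reads of 1 H3.3S31ph ChIP sample and 1 input sample were analysed per repeat type. The deposited tables, 1 per lane, hold raw read counts for ChIP and input, and the authors' log2 ratio with its bounds. Bowtie 1.0.0 and the build mm9 are named in the submitters' processing notes. How duplicates and reads matching several repeats were treated is not stated in the sources used here, and rows have no coordinates. Lanes were summed, giving 12235477 ChIP and 8856751 input reads, and rows with at least 100 input reads were analysed singly (704 of 952). Pooled ratios use all rows of a group. Intervals of ratios are exact conditional (Clopper-Pearson) 95% intervals, and those of differences use the normal approximation to the log ratio of counts. Both cover counting error only. The procedure was checked on simulated counts. Python 3.11.15, numpy 2.4.6, pandas 2.3.3 and scipy 1.17.1 were used.

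The members, lists and alternatives were chosen with earlier results of these data known. Named were rows with at least 1000 input reads, the 5 highest and 5 lowest ratios, the most abundant row of each family and rows whose interval excluded the median repeat, which gave 42 rows. Further rows named were chosen after their values were seen. No transposon consensus sequences were used here.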

Additional observations from a re-analysis of the deposited data

How the results depend on the processing

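The scale between libraries adds 1 constant to every log2 ratio: 0.31 with the median repeat set to 1, 0.17 on the deposited scale, and 0.20 without the 5 repeats with most ChIP plus input reads. That ranking was adopted after seeing the data, in place of input reads alone, which gave -0.069. With the median repeat set to 1, median log2 ratios were -0.057 for all members, -0.045 for hAT and -0.056 for Tc1-mariner, and pooled ones -0.037 for hAT and -0.061 for Tc1-mariner. Under it 21 of 78 rows lay below 1 and 1 above it, where 19.2% of all repeats lay below and 27.3% above. Among rows with at least 1000 input reads, Charlie8 (0.083), Tigger15a (0.00048) and URR1B (0.011) changed sign. Thinner rows did so too, among them Charlie13b (0.30), Tigger16b (0.15), Charlie7a (0.15) and Kanga1b (0.15). By ratio alone, 22 of the 78 rows were above the median repeat, where 352 of all 704 repeats were. On the main scale only 1 of the 78 rows had a ratio of at least 1. Without the 5 most abundant repeats the medians were -0.17, -0.16 and -0.17 for the same 3 sets, the pooled values -0.15 for hAT and -0.17 for Tc1-mariner, and 42 rows lay below 1. On the deposited scale the pooled values were -0.18 for hAT and -0.21 for Tc1-mariner, and 45 rows lay below 1. With base-named rows only, the pooled hAT value was -0.42 and hAT minus Tc1-mariner -0.043. Of these 27 rows 27 lay below 1, 12 below the median repeat and 0 above it. Without URR1A and URR1B, chosen after seeing the data, the pooled hAT value was -0.40 and the pooled difference -0.025. With at least 1000 input reads 26 of 26 rows lay below 1 and 0 above the median repeat. Of the 380 other repeats with that many input reads, 322 had a ratio below 1 in both lanes, a count made without intervals. In lane 2 alone 12 of 68 rows lay below the median repeat and 0 above it. Apart from the setting with the median repeat at 1, interval counts over all repeats were not made under these settings. The member counts are therefore not read as a trait of the members. Adding 1 read or dropping the read minimum moved none of these results past counting error. No paired analysis was possible because each group has 1 sample. Depth limits most single rows: only 26 of 80 had at least 1000 input reads.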
